A study of Mus musculus with 48 samples.

Results

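Splenic red pulp macrophages (RPMs) and their precursors, pre-RPMs, were compared in mice lacking the IL-33 receptor IL1RL1. The comparison held 8 RNA-seq libraries, 4 of Il1rl1-/- pre-RPMs and 4 of Il1rl1-/- RPMs, chosen by the genotype and cell type given in their labels. They were 8 of 24 RNA-seq libraries in a series of 48 samples, whose other 24 were ATAC-seq libraries not analysed here. The study compared monocytes, pre-RPMs and RPMs of WT and Il1rl1-/- mice to ask how IL-33 takes part in the last step of RPM development. All mice were Balb/c males aged 10 weeks, with no treatment named in the labels, and each library came from the spleen of a single mouse. Pre-RPMs were sorted as Ly6Glo CD11bhi F4/80lo cells and RPMs as Ly6Glo CD11blo/- F4/80hi cells. The deletion was not limited to macrophages. Since CD11b and F4/80 set the gates, their genes Itgam and Adgre1 are no independent evidence of a difference.

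RPMs engulf aged red blood cells, break heme down and export the iron, with much of that work under the transcription factor SPIC. Monocytes that take up heme switch on Spic and become pre-RPMs, which then lose monocyte traits and gain the mature phenotype. IL-33 binds a complex of IL1RL1 and the shared subunit IL1RAP, and signals through MYD88 and IRAK kinases to NF-kB and MAP kinases, including ERK.

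Each library held between 3769757 and 5326720 counts on genes, with medians of 4702354 in pre-RPMs and 4767560 in RPMs. A single gene, Gm42418, which overlaps a ribosomal RNA repeat, took 24.4% to 32.7% of the counts in pre-RPMs and 27.7% to 32.0% in RPMs. Levels are given below as CPM, the counts of a gene per 1000000 counts of its library after trimmed-mean (TMM) scaling. WT and Il1rl1-/- libraries were scaled in separate fits, so their CPM are not strictly on a shared scale. After a CPM value, ± gives the SD of 4 libraries, and after a log2 fold change (RPMs over pre-RPMs) it gives the standard error. A count of 3, the number a count of 0 allows, was worth 0.563 to 0.796 CPM before scaling, for counting error only. Levels of the genes tested correlated at a median r of 0.973 among pre-RPMs, 0.966 among RPMs and 0.683 between the groups, over 11437 genes that are not independent of each other. The first principal component took 86.8% of the variance and separated the cell types.

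Il1rl1, the targeted gene (ENSMUSG00000026069, GRCm38 chromosome 1, 40429570 to 40465415), was read in every library labelled Il1rl1-/-. Pre-RPMs 1 to 4 held 50, 76, 42 and 65 counts, or 12.4, 13.5, 13.1 and 12.7 CPM, and RPMs 1 to 4 held 1, 7, 3 and 6 counts, or 0.224, 1.15, 0.668 and 1.295 CPM. The 4 pre-RPM libraries were thus alike and all above the RPMs. In WT, pre-RPMs had 4.001 ± 0.996 CPM and RPMs 1.77 ± 0.727 CPM, so the pre-RPM libraries labelled as receptor-deficient held more Il1rl1 reads than the WT ones. Counts per gene do not show which exons were read, and whether they fell outside the deleted part was not tested. The genotype therefore stands here as labelled. Mean log2 CPM fell by 3.50 from pre-RPMs to RPMs (2-sided exact permutation test, p = 0.0286, the smallest p that 4 against 4 allows). Libraries of the same number carry the same mouse number in the labels, and the exact permutation test within mice gave p = 0.125, the smallest that 4 pairs allow. The fitted log2 fold change was -3.87 ± 0.29, with an edgeR adjusted p of 2.22e-08.

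A gene was called where edgeR's quasi-likelihood test gave an adjusted p under 0.01 and the absolute log2 fold change was above 1. Of 11437 genes tested, 2973 (26.0%) were called, 1658 (14.5%) higher and 1315 (11.5%) lower in RPMs. The counts given for gene lists below are to be read beside these shares, which some lists come near. The CPM of the groups did not overlap for 5646 genes (49.4%), and for 2910 of the 2973 called. Changes were large: 479 genes rose and 380 fell by more than 8-fold, and the median log2 fold change was 2.02 among genes called higher and -1.90 among those called lower. For 174 of the genes that rose, no pre-RPM library exceeded 3 counts, and for 114 that fell, no RPM library did. Together the genes that rose took 17210 to 17800 CPM in the pre-RPM libraries and 93220 to 117600 CPM in the RPM libraries, and the genes that fell took 83090 to 89440 CPM and 19710 to 21850 CPM. Their median exon length was 4235 bases for genes called higher, 4409 bases for genes called lower and 4368 bases for all genes tested.

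**Figure D1:**
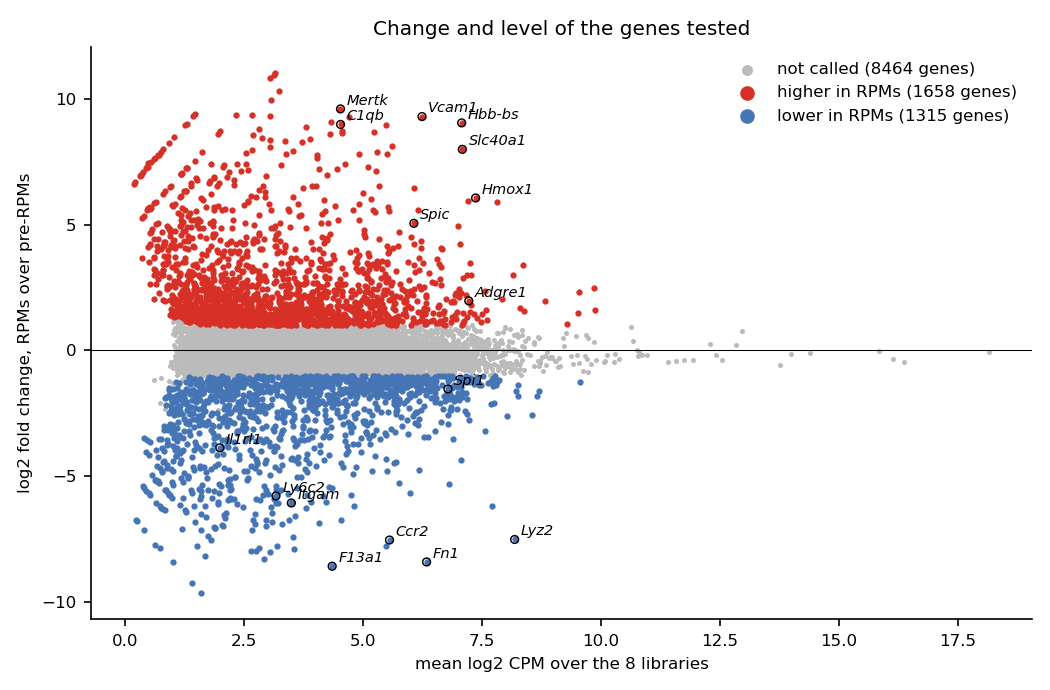
Each point is one of the 11437 genes tested, by its mean log2 CPM over the 8 libraries and its log2 fold change, RPMs over pre-RPMs, both unitless log2 scales. Red points are the 1658 genes called higher, blue points the 1315 called lower, grey points were not called, and the circled genes are described in the text. The monocyte gene Fn1 and the RPM gene Vcam1 lie near opposite ends of the range.

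The marker lists followed the labels of the cell types. These lists hold the gate genes Adgre1 and Itgam and were chosen with earlier results known, so they are no independent evidence of identity. All 17 red pulp macrophage markers tested were called higher in RPMs, with a median log2 fold change of 7.15, against -0.0018 for all genes tested. Summed, they took 704.3 to 870 CPM in pre-RPMs and 13680 to 14270 CPM in RPMs, so no library overlapped. None of the 26 monocyte markers tested was called higher and 24 were called lower, with a median log2 fold change of -6.08 and a sum of 8919 to 10310 CPM in pre-RPMs and 254 to 301 CPM in RPMs. In bulk RNA such as this, fewer cells of a type and less RNA per cell cannot be told apart.

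Vcam1 (ENSMUSG00000027962, GRCm38 chromosome 3, 116109949 to 116129688), the adhesion molecule long used to identify RPMs, measured 1.74, 3.21, 3.42 and 2.92 CPM in pre-RPMs 1 to 4 and 1799.5, 1802, 1683 and 1881 CPM in RPMs 1 to 4. Every RPM library lay far above every pre-RPM library, and the log2 fold change of 9.29 ± 0.17 passed the test (adjusted p = 9.58e-15). Mertk (ENSMUSG00000014361, GRCm38 chromosome 2, 128698956 to 128802894), a receptor that recognises apoptotic cells through bridging proteins, had 0.497, 0.356, 0.311 and 1.36 CPM in pre-RPMs and 503, 570.4, 521 and 549 CPM in RPMs, the largest rise among called genes with a mean log2 CPM of at least 4 (log2 fold change 9.60 ± 0.22, adjusted p = 4.04e-14). Its pre-RPM values rest on 1 to 7 counts per library. Axl, from the same receptor family, was already read in pre-RPMs at 29.8, 23.2, 29.6 and 32.7 CPM and reached 1784, 1634, 1741 and 1709 CPM in RPMs (log2 fold change 5.90 ± 0.14, adjusted p = 4.51e-14). Thus both receptors rose, from different starting levels.

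The other largest rises among such genes included C1qc and C1qb, chains of the complement component C1q, which went from 0.875 ± 0.305 and 0.812 ± 0.243 CPM to 529.7 ± 19.1 and 434 ± 33.1 CPM. Itgad, the integrin alpha D chain of RPMs, rose from 1.89 ± 0.902 to 940.4 ± 26.7 CPM. Sema6d, a transmembrane semaphorin, rose from 0.6902 ± 0.3102 to 372 ± 19.9 CPM, and Kcnj10, an inwardly rectifying potassium channel, from 0.966 ± 0.361 to 407 ± 29.1 CPM. The beta and alpha globin genes Hbb-bs and Hba-a1 also stood among the largest rises, and are described below with the erythroid genes. Adgre1, which encodes F4/80, rose from 75.4 ± 12.8 to 295 ± 14.97 CPM (log2 fold change 1.97 ± 0.12, adjusted p = 1.55e-09), and Itgam, which encodes CD11b, fell from 80.2 ± 11.1 to 1.19 ± 0.416 CPM (log2 fold change -6.06 ± 0.19, adjusted p = 7.73e-13). Both followed the gates.

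**Figure D2:**
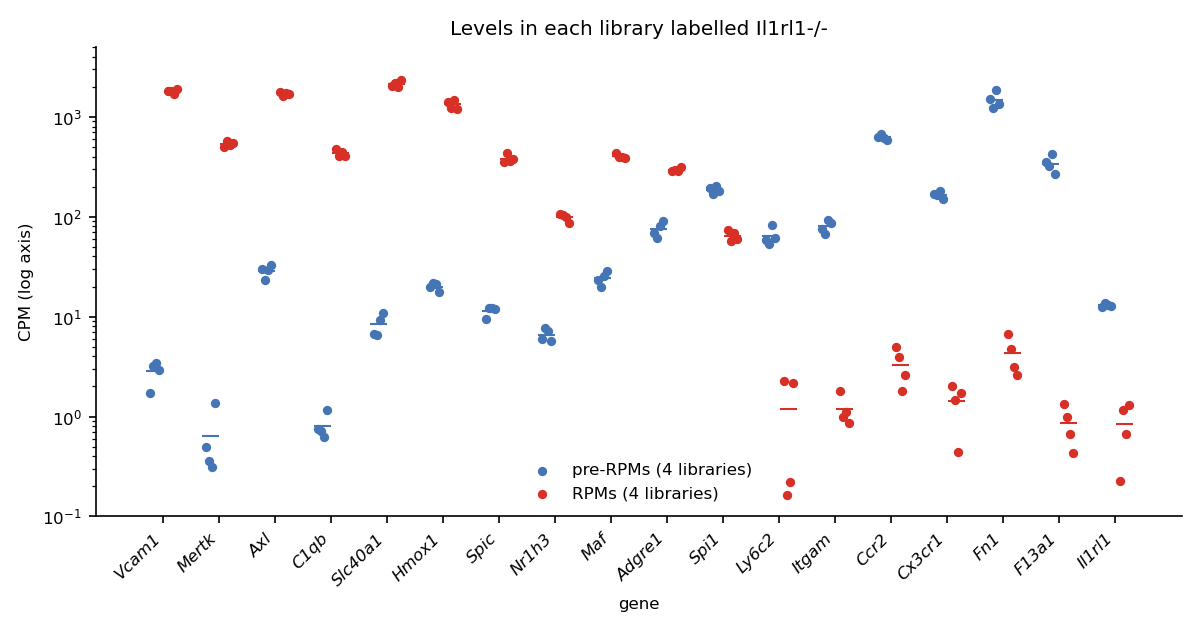
The level of 18 genes in CPM, on a log axis, in each of the 4 pre-RPM (blue) and 4 RPM (red) libraries labelled Il1rl1-/-, with a line at the group mean. Genes of RPM identity lie higher in red, monocyte genes and Il1rl1 lie higher in blue, and the groups of every gene shown are apart.

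Because the RPM genes moved together, the bases upstream of 4 of them are shown. Of the 5 genes chosen for this (Spic, Hmox1, Slc40a1, Vcam1 and Mertk), 2 had an entry in the RefSeq promoter table, and C1qb and Cd5l were added after their values were seen. Each sequence is the 250 bases before the start site in build GRCm38.p6, on the gene's strand, from chr10:88683024-88683273 (minus) for Spic, chr2:128698665-128698914 (plus) for Mertk, chr4:136886201-136886450 (minus) for C1qb and chr3:87357631-87357880 (plus) for Cd5l. Capitals mark matches on either strand to GAGGAA (the core of sites for PU.1 and SPIC), AGATAA (a form of the GATA site) or TGACNNNGC (the antioxidant response element). Other forms of the GATA site, such as the TGATAA in the window of Cd5l, were not searched. None of these windows overlaps an annotated exon, while that of Spic lies in an intron of a longer Spic transcript.
Spic: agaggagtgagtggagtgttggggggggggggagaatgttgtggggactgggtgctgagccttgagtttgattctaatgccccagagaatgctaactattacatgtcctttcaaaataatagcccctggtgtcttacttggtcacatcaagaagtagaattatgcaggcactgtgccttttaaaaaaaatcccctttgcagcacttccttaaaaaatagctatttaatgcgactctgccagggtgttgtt
Mertk: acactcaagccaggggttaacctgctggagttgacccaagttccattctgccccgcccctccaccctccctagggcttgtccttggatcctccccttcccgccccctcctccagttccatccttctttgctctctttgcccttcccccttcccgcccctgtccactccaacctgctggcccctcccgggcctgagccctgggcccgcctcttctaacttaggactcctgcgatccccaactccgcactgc
C1qb: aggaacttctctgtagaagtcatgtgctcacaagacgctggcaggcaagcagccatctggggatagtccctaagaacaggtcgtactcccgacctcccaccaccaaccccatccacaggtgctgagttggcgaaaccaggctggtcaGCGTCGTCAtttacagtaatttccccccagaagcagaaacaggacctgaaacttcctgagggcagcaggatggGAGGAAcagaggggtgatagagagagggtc
Cd5l: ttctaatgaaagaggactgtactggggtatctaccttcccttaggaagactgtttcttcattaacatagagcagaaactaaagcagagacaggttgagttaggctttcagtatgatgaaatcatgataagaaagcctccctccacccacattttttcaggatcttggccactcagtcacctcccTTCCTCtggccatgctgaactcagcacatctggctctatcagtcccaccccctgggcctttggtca
The windows of Spic and Mertk held none of the motifs, that of C1qb held GAGGAA and TGACNNNGC, and that of Cd5l held GAGGAA. A match is a description of the letters and not a site. GAGGAA was in 23.3% of all 32851 promoters in the table, 22.8% of those of genes tested, 21.5% of those of genes called higher and 26.7% of those of genes called lower. AGATAA was in 5.94% of the promoters of genes tested, 6.39% of the higher and 5.47% of the lower, and TGACNNNGC was in 11.7%, 13.2% and 10.5%. Of the 11437 genes tested, 8438 had an entry.

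Monocyte genes fell by comparable amounts. Fn1 (ENSMUSG00000026193, GRCm38 chromosome 1, 71585520 to 71653200), fibronectin, measured 1499.6, 1214, 1838 and 1334 CPM in pre-RPMs and 6.73, 4.76, 3.12 and 2.59 CPM in RPMs (log2 fold change -8.41 ± 0.25, adjusted p = 4.58e-13). Lyz2, the lysozyme of myeloid cells, measured 4337, 4233, 3828 and 3412 CPM and 30.9, 21.2, 18.03 and 16.4 CPM (log2 fold change -7.51 ± 0.21, adjusted p = 2.78e-13). In both genes even the lowest pre-RPM library stood far above the highest RPM library. Ccr2, the receptor that draws classical monocytes out of the marrow, fell from 624 ± 39.1 to 3.31 ± 1.401 CPM, and Cx3cr1, the fractalkine receptor of patrolling monocytes, from 167 ± 11.9 to 1.42 ± 0.684 CPM. Ly6c2, which encodes the classical monocyte antigen Ly6C, had 58.1, 53.1, 83.1 and 61.2 CPM in pre-RPMs and 2.24, 0.164, 0.223 and 2.16 CPM in RPMs, the latter on 1 to 10 counts per library. Ace, angiotensin-converting enzyme, fell from 623 ± 66.4 to 2.88 ± 0.804 CPM and Plac8, a small cysteine-rich protein, from 227 ± 14.7 to 2.04 ± 0.957 CPM. F13a1, the A chain of coagulation factor XIII, fell from 339.9 ± 66.2 to 0.858 ± 0.396 CPM, Ahnak, a giant scaffold protein, from 1862 ± 213 to 25.8 ± 16.8 CPM, and Tiam1, a RAC activator, from 139 ± 20.1 to 2.15 ± 0.812 CPM. Cd177, a surface antigen known from neutrophils, fell from 99.6 ± 17.2 to 0.317 ± 0.352 CPM. Cd300e and Ear2 were the 2 monocyte markers not called. Like the rest of the 26, both had an unadjusted edgeR p under 0.05 and no overlap between the groups.

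The iron and heme genes rose more often than they fell. Of 34 members tested, 17 were called higher and 4 lower, with a median log2 fold change of 0.98. Those called lower, 11.8%, were near the share of all genes tested, 11.5%. Slc40a1 (ENSMUSG00000025993, GRCm38 chromosome 1, 45908068 to 45926523), ferroportin, the cellular iron exporter, measured 6.704, 6.595, 9.33 and 10.9 CPM in pre-RPMs and 2044, 2159, 1981 and 2351 CPM in RPMs. Hmox1 (ENSMUSG00000005413, GRCm38 chromosome 8, 75093621 to 75100589), heme oxygenase, which opens the heme ring, measured 19.6, 21.7, 21.2 and 17.5 CPM and 1416, 1236, 1472 and 1205 CPM. Neither gene's groups came close to each other, and the log2 fold changes were 7.99 ± 0.18 and 6.06 ± 0.13 (adjusted p = 3.81e-14 and 3.73e-14). Per kb of exon, RPMs held 761 CPM of Hmox1 and 237 CPM of Slc40a1. Cd163, the receptor for haptoglobin-bound hemoglobin, rose from 3.002 ± 0.775 to 442 ± 39.8 CPM, whereas Hp, haptoglobin itself, fell from 76.8 ± 14.6 to 0.272 ± 0.328 CPM. Members chosen after their values were seen fill in the pathway. The biliverdin reductase Blvrb rose by 4.01, the heme transporter Slc48a1 by 3.11, the ferritin chains Fth1 and Ftl1 by 1.95 and 2.33, the ferritin cargo receptor Ncoa4 by 2.57 and the transferrin receptor Tfrc by 3.25 on the log2 scale. Bach1, the heme-sensing repressor of Hmox1, fell by 2.36 on the log2 scale. Transcripts of red cells and their precursors moved with this list, as given below, and the same 17 members were called higher and the same 4 lower without RPM libraries 3 and 4, which held the most of those transcripts. RPMs 1 and 2 still held 2798 and 911 CPM of erythroid markers, so this alternative cannot show the part of erythroid RNA. That part was not tested.

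Among myeloid transcription factors, 14 of 66 tested were called higher and 26 lower, with a median log2 fold change of -0.51. Spic (ENSMUSG00000004359, GRCm38 chromosome 10, 88674772 to 88685015) measured 9.43, 12.3, 12.1 and 11.9 CPM in pre-RPMs and 349, 435, 360.3 and 378 CPM in RPMs. Spi1, which encodes PU.1, an ETS factor of the same family that all macrophages need, measured 194, 169, 202 and 182 CPM and 73.1, 56.8, 68.8 and 59.8 CPM. The groups did not overlap for either gene, and they moved in opposite directions (log2 fold changes 5.05 ± 0.13 and -1.53 ± 0.11, adjusted p = 1.17e-13 and 7.36e-09). Per kb of exon, Spic stood at 2.98 and Spi1 at 69.3 CPM in pre-RPMs, and at 99.1 and 23.98 CPM in RPMs, so their order was turned. Maf, a basic leucine zipper factor of differentiated macrophages, rose from 24.4 ± 3.801 to 404 ± 22.04 CPM (adjusted p = 7.08e-13). Nr1h3, the oxysterol receptor LXR alpha, rose from 6.61 ± 0.958 to 99.4 ± 8.58 CPM (adjusted p = 1.19e-12). Nfil3, a basic leucine zipper repressor, had 8.94, 14.97, 13.7 and 13.2 CPM in pre-RPMs and 0.224, 0.329, 0.223 and 0.216 CPM in RPMs, the latter on 1 or 2 counts per library. Klf4, a factor of monocyte differentiation, fell from 75.8 ± 4.64 to 3.08 ± 0.998 CPM (log2 fold change -4.60 ± 0.15, adjusted p = 1.73e-12).

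The GATA factors were close to the limit of detection. Gata1, the driver of red cell development, had 0.993, 0.713, 2.8001 and 1.36 CPM in pre-RPMs and 1.79, 1.48, 2.89 and 1.295 CPM in RPMs. Gata2, a factor of blood progenitors and mast cells, had 0.993, 1.604, 0.933 and 2.53 CPM and 2.02, 0.329, 0.223 and 0.648 CPM, and Gata3, known from lymphocytes, had 0.497, 0.535, 1.87 and 0.585 CPM and 2.47, 0.986, 0.223 and 1.73 CPM. The groups overlapped for all 3 genes, which fell under the filter on low counts and were not tested. In WT, Gata2 passed that filter and fell from 11.6 ± 7.42 to 1.37 ± 1.004 CPM (log2 fold change -3.01, adjusted p = 0.00023). Its change from pre-RPMs to RPMs differed between genotypes by 2.01 ± 0.98 on the log2 scale, which did not pass the edgeR test (adjusted p = 0.683). That test does not compare levels in pre-RPMs, which were 1.52 ± 0.743 CPM in Il1rl1-/- and 11.6 ± 7.42 CPM in WT, scaled separately. The paper reports lower Gata2 in receptor-deficient pre-RPMs, a contrast that was not tested here.

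Genes of the uptake of dying cells and red cells were split. Of 43 tested, 17 were called higher and 14 lower, with a median log2 fold change of 0.20. Besides Mertk, Axl and C1q, those that rose held Cd5l, a scavenger protein secreted by tissue macrophages, with 0, 0, 0 and 0.195 CPM in pre-RPMs, where 3 libraries had no count, and 126, 109.9, 205 and 154 CPM in RPMs. Stab2, a scavenger receptor that binds phosphatidylserine and hyaluronan, had 0.248, 0.356, 0.933 and 0.3897 CPM and 217, 248, 217 and 196 CPM. In both genes every RPM library lay above every pre-RPM library. Gas6, which bridges phosphatidylserine to Axl and Mertk, rose by 4.98 on the log2 scale, while Pros1, another bridging protein of Mertk, fell by 5.36, and both were chosen after their values were seen. Mfge8, which bridges phosphatidylserine to integrins, fell from 5.89 ± 1.005 to 0.622 ± 0.206 CPM, and Timd4, a phosphatidylserine receptor, rose from 1.71 ± 1.101 to 29.6 ± 7.97 CPM. Scavenger receptors that fell included Msr1 (-5.37 ± 0.21), Olr1 (-7.84 ± 0.70) and Clec7a (-5.74 ± 0.21, log2 fold changes), also chosen after seeing their values.

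Complement genes showed the same split, with 9 of 20 tested called higher, 5 lower and a median log2 fold change of -0.05. C6, a terminal pathway component, had 0, 0, 0 and 0.195 CPM in pre-RPMs and 149, 164, 169.8 and 164 CPM in RPMs. Fcna, a lectin that starts the lectin pathway, rose from 2.33 ± 0.125 to 563 ± 32.5 CPM (adjusted p = 9.58e-15). In the coagulation list 6 of 18 tested were called higher and 9 lower (median -1.61). F10, factor X, had 13.4, 16.04, 14.001 and 20.7 CPM in pre-RPMs and no count in any RPM library, at least 25.8-fold lower when 3 counts per library are allowed. F5, factor V, fell from 68.3 ± 20.2 CPM to 0.224 to 0.668 CPM, or 1 to 3 counts. Of 26 C-type lectins and Siglecs, 6 were called higher and 10 lower (median -0.45). Mrc1, the mannose receptor, rose from 18.8 ± 2.995 to 1157 ± 136 CPM, whereas Cd209a, a DC-SIGN homologue, fell from 26.1 ± 5.46 to 0.403 ± 0.386 CPM and Mgl2, a galactose-type lectin, from 2.91 ± 0.259 CPM to no count, at least 4.70-fold lower. Clec5a, a DAP12-coupled receptor, fell from 9.096 ± 1.06 to 0.11002 ± 0.127 CPM.

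Lysosomal genes rose more often than they fell, with 28 of 79 called higher and 3 lower and a median log2 fold change of 0.51, against -0.0018 for all genes. Pld3, an endolysosomal nuclease, measured 5.46, 6.42, 10.3 and 5.26 CPM in pre-RPMs and 336, 300.0, 288 and 304 CPM in RPMs (log2 fold change 5.52 ± 0.17, adjusted p = 5.82e-13). Pla2g15, the lysosomal phospholipase, rose from 20.5 ± 0.826 to 214 ± 8.01 CPM and Acp2, lysosomal acid phosphatase, from 23.6 ± 1.805 to 218 ± 6.73 CPM. Arsb, arylsulfatase B, went the other way, from 126 ± 17.7 to 9.67 ± 1.69 CPM. In the sterol and lipid list 11 of 49 were called higher and 8 lower (median 0.08). Abca1, the cholesterol exporter under LXR control, rose from 11.7 ± 1.51 to 174 ± 10.7 CPM, Fads1, a fatty acid desaturase, from 2.13 ± 0.631 to 33.04 ± 2.05 CPM, and Lpl, lipoprotein lipase, from 29.8 ± 7.22 to 319 ± 28.5 CPM (adjusted p = 4.59e-13, 4.59e-11 and 4.93e-11).

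**Figure D3:**
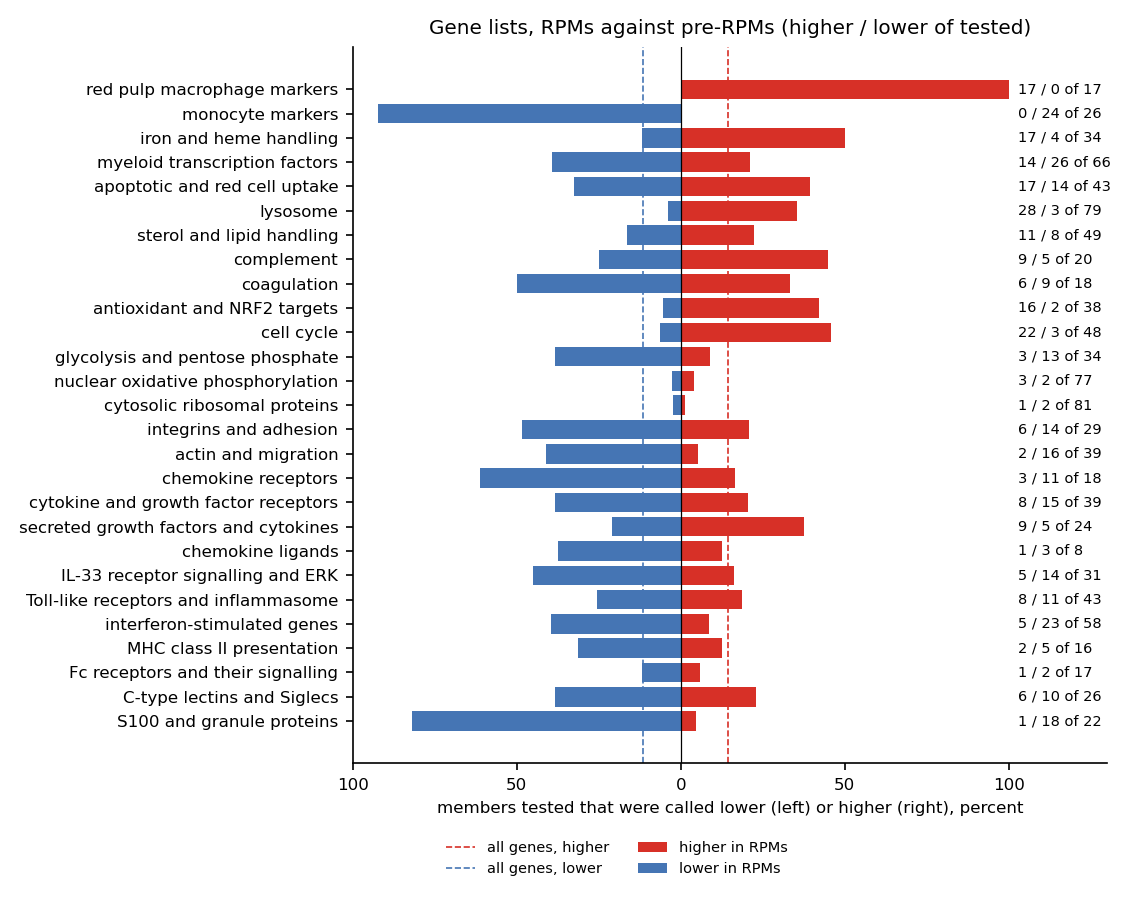
The share of the members tested, in percent, that was called higher (red, to the right) or lower (blue, to the left) in RPMs for 27 gene lists, with the counts at the right. The dashed lines mark the share of all 11437 genes called higher, 14.5%, and lower, 11.5%. Bars reach past both lines for the uptake, complement and coagulation lists, while those of oxidative phosphorylation and ribosomal proteins stay inside them.

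Red cell transcripts differed widely between the RPM libraries. All 13 erythroid markers tested were called higher in RPMs, with a median log2 fold change of 6.02. Their sum was 14.7, 22.3, 37.6 and 40.9 CPM in pre-RPMs 1 to 4 and 2798, 911, 11140.0 and 15060.0 CPM in RPMs 1 to 4. RPMs 3 and 4 stood far above RPMs 1 and 2, and every RPM library above every pre-RPM library. Hbb-bs, adult beta globin, had 3.48, 4.0997, 7.47 and 17.7 CPM in pre-RPMs and 1558, 465, 6019 and 9578 CPM in RPMs, and Hba-a1, alpha globin, 0.993, 0.535, 3.73 and 4.87 CPM and 374, 105, 1428 and 2166 CPM. Their log2 fold changes of 9.04 ± 0.92 and 8.67 ± 0.93 carried wide errors (adjusted p = 6.49e-07 and 1.22e-06). Hba-a1, Hba-a2, Hbb-bs and Hbb-bt are near-identical pairs, between which the counting may have divided reads. All 13 markers stayed called without RPMs 3 and 4, an alternative chosen after seeing the data, as were 2913 genes, 2616 of them among the 2973.

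Cell cycle genes moved with them. Of 48 tested, 22 were called higher and 3 lower in RPMs, with a median log2 fold change of 1.17. Their sum was 536, 547, 558 and 508.4 CPM in pre-RPMs and 897, 665, 1060.0 and 1098 CPM in RPMs, so the groups did not overlap and the library with the fewest erythroid transcripts, RPM 2, had the lowest sum of the 4. Nusap1, a spindle protein, measured 0.497, 1.25, 0.622 and 0.585 CPM in pre-RPMs and 6.28, 2.46, 19.4 and 24.2 CPM in RPMs. Cdc25b, a phosphatase of mitotic entry, measured 3.72, 4.46, 2.49 and 1.17 CPM and 23.8, 7.56, 62.3 and 89.8 CPM, and Ube2c, a partner of the anaphase-promoting complex, 0.497, 0.535, 0.622 and 0.974 CPM and 6.73, 3.12, 13.6 and 16.8 CPM. In each gene RPMs 3 and 4 were the highest and RPM 2 the lowest RPM library, the order of the erythroid sum (adjusted p = 0.000231, 0.000151 and 4.01e-05). Cdkn1a, the inhibitor p21, fell from 6.04 ± 0.972 to 0.218 ± 0.305 CPM, the latter on 0 to 3 counts. Without RPMs 3 and 4, 20 members were called higher and 3 lower. Since RPMs 1 and 2 also held erythroid transcripts, the part of erythroid RNA in the cell cycle values was not tested by this.

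Of 38 antioxidant genes and NRF2 targets, 16 were called higher and 2 lower (median 0.45). Besides Hmox1, Blvrb rose from 7.03 ± 1.25 to 113 ± 5.18 CPM. Gclm, which sets the rate of glutathione synthesis, had 42.6, 36.1, 56.97 and 61.3 CPM in RPMs 1 to 4, after 4.26 ± 0.694 CPM in pre-RPMs. Prdx2, a peroxiredoxin that red cells hold in quantity, had 58.3, 40.4, 140.2 and 127 CPM in RPMs, after 16.5 ± 3.203 CPM. Both were highest in the 2 RPM libraries with the highest erythroid sums. Without those libraries 15 members of the list were called higher and 3 lower. The part of erythroid RNA in this list was not tested.

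**Figure D4:**
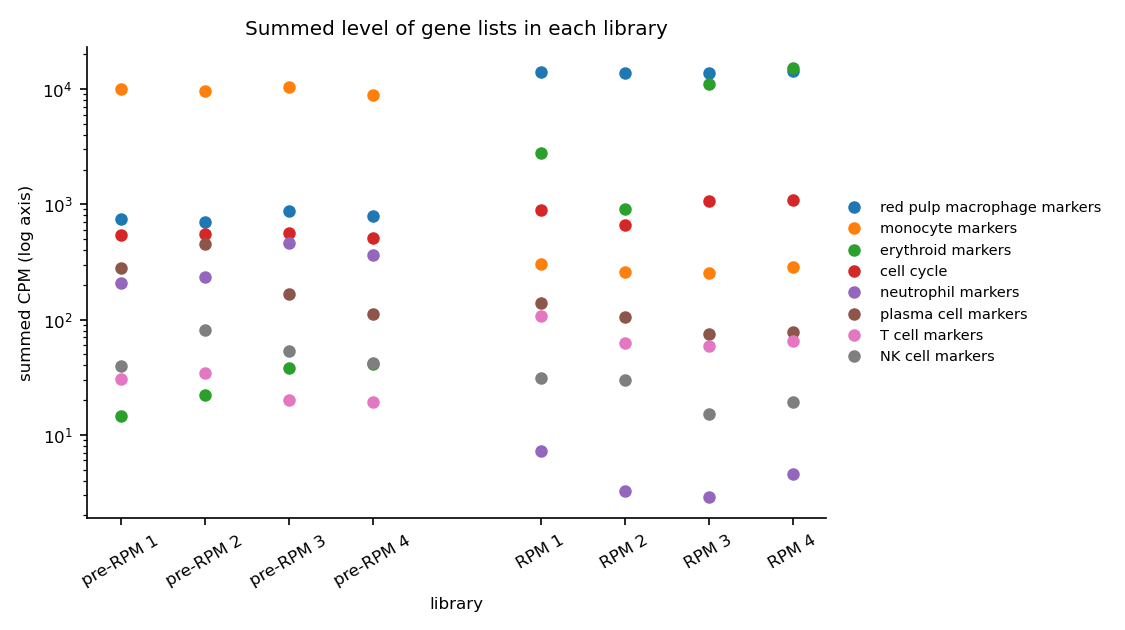
The summed CPM of 8 gene lists, on a log axis, in each of the 4 pre-RPM and 4 RPM libraries labelled Il1rl1-/-. The sum of red pulp macrophage markers is level among RPMs, at 13680 to 14270 CPM, while that of erythroid markers spreads from 911 to 15060 CPM.

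Of the genes of IL-33 receptor signalling and ERK, 5 of 31 were called higher, 16.1% against 14.5% of all genes tested, and 14 lower (median -0.67). Among the 14 that fell were the co-receptor Il1rap by 1.34, the adaptor Myd88 by 1.10, the kinases Map2k1 and Mapk3 by 1.54 and 1.73, and Nfkb1 by 1.47 on the log2 scale, all chosen after their values were seen. Among genes that ERK is known to induce, the phosphatases Dusp5 and Dusp6 fell by 2.18 and 1.59, whereas Etv5, an ETS factor, rose from 2.23 ± 0.217 to 38.99 ± 5.12 CPM and Spry4, a feedback inhibitor, had 0.745, 0, 0 and 0 CPM in pre-RPMs and 11.7, 10.7, 6.68 and 5.18 CPM in RPMs. Il1r1, the IL-1 receptor, rose from 0.724 ± 0.272 to 4.98 ± 0.641 CPM (log2 fold change 2.73 ± 0.34, adjusted p = 4.97e-06). Thus both directions were found among the targets of ERK.

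Of 43 genes of Toll-like receptors and the inflammasome, 8 were called higher and 11 lower (median -0.33). Il18, an inflammasome cytokine, rose from 3.65 ± 1.601 to 62.99 ± 6.99 CPM and Il1a, a membrane-bound IL-1, from 0.224 ± 0.282 to 10.9 ± 3.53 CPM, the former group of Il1a on 0 to 3 counts. Mefv, which encodes pyrin, fell from 67.6 ± 7.099 to 2.04 ± 0.444 CPM and Il1rn, the IL-1 receptor antagonist, from 6.26 ± 0.309 to 0.0556 ± 0.111 CPM, with 1 count in 1 RPM library. Interferon-stimulated genes were lower in RPMs more often than higher, with 23 of 58 called lower and 5 higher (median -0.85). Slfn1, a growth regulator of the Schlafen family, had 48.4, 42.96, 76.2 and 62.4 CPM in pre-RPMs and 1.79, 0.986, 0.668 and 1.08 CPM in RPMs, and Oasl2, an oligoadenylate synthetase-like protein, 27.1, 20.5, 42.3 and 31.4 CPM and 0.897, 1.15, 0.8902 and 0.216 CPM. Zbp1, a nucleic acid sensor, fell from 32.6 ± 8.69 to 2.24 ± 0.654 CPM, and Iigp1, an interferon-inducible GTPase, had 0, 0.535, 0.622 and 0 CPM and 5.83, 7.06, 19.4 and 12.3 CPM. Slfn1 and Oasl2 thus fell while Iigp1 rose.

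Genes of migration fell more often than they rose. Of 18 chemokine and chemoattractant receptors, 3 were called higher and 11 lower (median -1.79), led by Ccr2 and Cx3cr1. Fpr1, the formyl peptide receptor, had 0.248, 0.178, 0 and 0.3897 CPM in pre-RPMs and 23.5, 27.4, 20.7 and 28.1 CPM in RPMs, and Ltb4r1, a leukotriene B4 receptor, 13.9, 12.7, 17.7 and 10.5 CPM and 0.224, 0.493, 0 and 0.432 CPM. These receptors for neutrophil and monocyte attractants moved in opposite directions. Among 8 chemokine ligands, Ccl9 fell from 127 ± 17.2 to 0.673 ± 0.332 CPM, Ccl6 from 254 ± 18.1 to 23.6 ± 2.08 CPM and Cxcl16 from 7.27 ± 1.55 to 1.198 ± 0.188 CPM, and Ccl24, an eosinophil attractant, rose from 4.56 ± 0.931 to 58.5 ± 3.58 CPM. Of 29 integrins and adhesion genes, 6 were called higher and 14 lower (median -0.92). Vcam1 and Itgad rose, while Itgam fell and Itga8, the integrin alpha 8 chain, had 10.9, 18.003, 21.8 and 16.6 CPM in pre-RPMs and 0.448, 0.164, 0 and 0.216 CPM in RPMs. Of 39 actin and motility genes, 2 were called higher and 16 lower (median -0.79). Lsp1, an actin-binding protein of leukocytes, fell from 382 ± 30.2 to 14.3 ± 6.74 CPM, Coro1a, coronin, from 607 ± 24.9 to 29.4 ± 9.34 CPM, Capg, a capping protein, from 59.03 ± 9.51 to 5.56 ± 1.78 CPM, and Arhgdib, a GDP dissociation inhibitor, from 141 ± 10.1 to 16.1 ± 3.27 CPM.

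Most S100 and granule proteins fell, with 18 of 22 called lower and 1 higher (median -4.48). S100a8, a chain of calprotectin, had 18.4, 27.98, 37.02 and 30.2 CPM in pre-RPMs and 0.224, 0.329, 0 and 0.216 CPM in RPMs. Lyz1, the second lysozyme gene, whose reads may be shared with Lyz2, had 9.93, 10.2, 10.9 and 10.7 CPM and 0, 0, 0.223 and 0.216 CPM. Neutrophil markers, a list that also holds S100a8 and S100a9, moved in the same direction. All 8 tested were called lower, and their sum was 208, 232, 461 and 362 CPM in pre-RPMs 1 to 4 and 7.17, 3.29, 2.89 and 4.53 CPM in RPMs. Retnlg, a resistin-like peptide of neutrophils, measured 51.1, 36.9, 75.3 and 120.0 CPM in pre-RPMs and 0, 0.164, 0 and 0.864 CPM in RPMs. Ngp, a granule protein of immature neutrophils, fell from 52.3 ± 29.9 to 0.4699 ± 0.297 CPM and Mmp8, neutrophil collagenase, from 24.1 ± 6.36 to 0.112 ± 0.224 CPM. The part of neutrophil RNA in the fall of S100 and granule genes was not tested.

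Of 39 cytokine and growth factor receptors, 8 were called higher and 15 lower (median -0.80). Il17ra, the IL-17 receptor, fell from 398 ± 21.98 to 34.9 ± 4.05 CPM, Lifr, the LIF receptor, from 28.5 ± 3.04 to 4.38 ± 0.572 CPM, Flt3, the progenitor and dendritic cell receptor, from 14.9 ± 2.605 to 1.85 ± 1.06 CPM, and Met, the hepatocyte growth factor receptor, from 15.8 ± 4.82 to 0.3297 ± 0.2801 CPM. Csf1r, the receptor that keeps macrophages alive, rose by 1.59 on the log2 scale and was named after its value was seen. Of 24 secreted growth factors and cytokines, 9 were called higher and 5 lower (median 0.51). Igf1, insulin-like growth factor, measured 1.24, 0.891, 0.933 and 0.779 CPM in pre-RPMs and 193, 188, 195 and 195 CPM in RPMs (log2 fold change 7.63 ± 0.14, adjusted p = 9.58e-15). Pdgfc, a platelet-derived growth factor, had 0, 0, 0 and 0.195 CPM and 20.4, 21.2, 18.2 and 18.6 CPM, and Fgf1, an acidic fibroblast growth factor, 0.248, 0.178, 0 and 0 CPM and 13.9, 14.8, 11.1 and 10.8 CPM. Hbegf, a ligand of the EGF receptor, had no count in any pre-RPM library and 5.16, 5.42, 4.45 and 5.83 CPM in RPMs, at least 7.46-fold higher when 3 counts per library are allowed. All 4 growth factors were thus at a few counts or none before the RPM stage.

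MHC class II presentation genes fell in part, with 5 of 16 called lower and 2 higher (median -0.50). The share called higher, 12.5%, was near the 14.5% of all genes tested. Ciita, the master regulator of the class II genes, fell from 120.0 ± 4.69 to 30.4 ± 4.85 CPM and Cd40, a costimulatory receptor, from 27.4 ± 3.24 to 1.78 ± 1.53 CPM. The CD28 ligands Cd86 and Cd80 rose from 11.3 ± 2.095 to 105 ± 8.63 CPM and from 3.82 ± 1.26 to 16.96 ± 0.775 CPM. Fc receptors and their signalling had few calls, with 1 of 17 called higher and 2 lower (median -0.01). The 2 called lower, 11.8%, matched the share of all genes tested, 11.5%. Fcgr1, the high-affinity IgG receptor, was also called higher when pre-RPM 3, pre-RPM 4, RPM 1 or RPM 4 was left out. Fcgrt, the neonatal Fc receptor, rose from 61.5 ± 3.19 to 270.0 ± 14.4 CPM, while Fcgr2b, the inhibitory IgG receptor, fell from 101 ± 6.94 to 10.6 ± 1.82 CPM and Plcg2, a phospholipase that acts below activating receptors, from 258 ± 25.02 to 70.7 ± 4.49 CPM.

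Glycolysis and pentose phosphate genes were lower for 13 of 34 and higher for 3 (median -0.66). Ldhb, a lactate dehydrogenase chain, fell from 11.8 ± 2.43 to 0.427 ± 0.284 CPM, Slc16a3, a lactate exporter, from 20.97 ± 1.91 to 1.75 ± 0.632 CPM, Eno3, an enolase, from 31.2 ± 3.61 to 2.7000 ± 1.17 CPM, and Slc2a6, a sugar transporter, from 12.4 ± 1.31 to 0.401 ± 0.125 CPM. Nuclear genes of oxidative phosphorylation had few calls. Of 77, 3 were called higher and 2 lower (median -0.03), among them Ndufa12 (1.25 ± 0.21), Ndufa6 (-1.23 ± 0.10), Sdhc (1.08 ± 0.13) and Uqcrfs1 (-1.07 ± 0.14, log2 fold changes). The log2 fold change of Sdhc was 0.97 without pre-RPM 1, and that of Uqcrfs1 -0.96 without pre-RPM 1 and -0.99 without RPM 4, which ended their calls. The third that rose, Ndufa5, lost its call without pre-RPM 2, 3 or 4 or RPM 1 or 4. None of 7 mitochondrially encoded proteins was called by edgeR or DESeq2 (median 0.56), although all 7 had an unadjusted edgeR p under 0.05. Of 81 cytosolic ribosomal proteins 1 was called higher and 2 lower (median -0.51). Rplp0 and Rps27a were those that fell, by 1.23 and 1.09 on the log2 scale, and Rps4l, at 0.544 ± 0.179 CPM in pre-RPMs, was the one that rose. Rpl18 and Rpl34 were also called lower without RPM 1, and Rps27a was not called without RPMs 3 and 4 together.

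Markers of further cell types were mostly low. Eosinophil genes disagreed with each other, since Ccr3, the eotaxin receptor, rose from 27.6 ± 12.4 to 340.3 ± 37.2 CPM, while Siglecf fell from 4.23 ± 2.11 to 0.76003 ± 0.221 CPM and Alox15, a lipoxygenase, from 28.9 ± 11.6 to 0.207 ± 0.0285 CPM. Of the 10 eosinophil markers, 7 had at most 3 counts in every RPM library, and 4 were tested, with 1 called higher and 2 lower. More were called lower under several alternatives. These were 6 with DESeq2, 4 without pre-RPM 1 or pre-RPM 3, and 5 without any single RPM library. With 10 counts in every library, none was called lower. Cd4 was called by edgeR among 6 T cell markers, rising from 3.68 ± 1.08 to 32.9 ± 2.597 CPM, and the sum of the list was 19.3 to 34.4 CPM in pre-RPMs and 59.0 to 108 CPM in RPMs. A second T cell marker was called with DESeq2, with the mouse as a block and without pre-RPM 1, pre-RPM 2, RPM 2 or RPM 3, namely Cd8a, Cd3g or Cd8b1. None of 11 B cell markers was called by edgeR or DESeq2, and 2 had an unadjusted edgeR p under 0.05, while Cd79b was called higher without pre-RPM 2. Jchain, the joining chain of plasma cells, had 188, 341, 90.5 and 40.5 CPM in pre-RPMs and 64.8, 29.9, 9.12 and 10.8 CPM in RPMs, which overlap, and its fall (adjusted p = 0.00223) was lost without pre-RPM 2 (adjusted p = 0.0106). Jchain was also not called with DESeq2 (adjusted p = 0.0112), with glmTreat or without RPMs 3 and 4 together. The NK cell genes Gzma and Klrk1 fell from 12.5 ± 8.25 to 3.78 ± 1.48 CPM and from 20.3 ± 2.504 to 9.06 ± 1.796 CPM (adjusted p = 0.00291 and 2.22e-05). The call of Gzma was lost without pre-RPM 2 (adjusted p = 0.0163) or RPM 3 (0.0107), and those of both genes without RPMs 3 and 4 together. Of the 7 dendritic cell markers tested, 4 fell, among them Clec10a, a galactose-type lectin, from 10.6 ± 1.87 to 0.221 ± 0.182 CPM, and Clec9a, the receptor of cross-presenting cells, from 4.91 ± 1.72 to 2.03 ± 0.856 CPM. The call of Clec9a was lost when any of 5 libraries was left out (adjusted p 0.0195 to 0.0301 without them). It was also lost with DESeq2 (adjusted p = 0.0137) and with all 24 libraries in a single edgeR fit (adjusted p = 0.0361). Of 7 markers of marginal zone and white pulp macrophages, 4 were called higher and 3 lower. None of the basophil and mast cell, platelet or stromal markers tested was called by edgeR or DESeq2. These were 1, 1 and 2 genes, of which 1, 1 and 1 had an unadjusted edgeR p under 0.05.

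The same comparison was made in 8 WT libraries, to test which changes differed between the genotypes. Of 1572 genes called higher and tested in both, 1565 had a positive log2 fold change in WT and 1326 were called higher there. Of 1245 called lower, 1242 were negative and 1041 were called lower in WT. Over the 17 red pulp macrophage markers the median log2 fold change was 7.15 in Il1rl1-/- and 5.92 in WT, and over the 26 monocyte markers -6.08 and -5.01. A single WT pre-RPM library, the third, stood apart in RPM and red cell transcripts. Vcam1 measured 2.19, 1.995, 39.04 and 8.48 CPM in WT pre-RPMs 1 to 4, C1qb 0.875, 0.748, 15.1 and 2.01 CPM, and the erythroid sum 19.9, 19.7, 562 and 92.2 CPM. Without that library, left out after seeing the data, the WT medians were 6.70 and -4.99, and 1320 of 1624 genes were called higher and 1047 of 1259 lower in WT. The difference between genotypes passed the edgeR test for none of these 43 markers, with or without it, while 1 passed with DESeq2. An unadjusted edgeR p under 0.05 was reached by 27 of the 43 (21 without it). The 27 are to be read beside the count over all genes tested, given below with the genes flagged for a closer look. No such count is given for the fit without that library. Of 12150 genes tested for a difference between the genotypes, 13 (0.107%) passed at an adjusted p under 0.05, and 36 did with the mouse as a block. The groups share no library between genotypes.

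Nrp2, a receptor for semaphorins and VEGF, measured 13.2, 11.8, 6.84 and 11.1 CPM in pre-RPMs and 13.9, 8.87, 10.9 and 9.07 CPM in RPMs labelled Il1rl1-/-, against 16.9 ± 4.16 and 2.47 ± 0.713 CPM in WT. The log2 fold change was -0.037 ± 0.21 in Il1rl1-/- and -2.74 in WT, a difference of 2.72 ± 0.34 (edgeR adjusted p = 0.00118). Nrp2 lies on the same chromosome as the targeted gene Il1rl1, as do Nck2 and Adam23, described below. Whether the differences in these genes go with the targeted locus or with the loss of the receptor was not tested. S100a8 and S100a9, the chains of calprotectin, fell by more in Il1rl1-/-, with log2 fold changes of -6.94 ± 0.38 and -5.90 ± 0.34 against -3.19 and -2.65 (adjusted p = 0.0112 and 0.00758). Beside them, the sum of neutrophil markers, a list that holds S100a8 and S100a9, was 208 to 461 CPM in pre-RPMs and 2.89 to 7.17 CPM in RPMs labelled Il1rl1-/-. In WT it was 191 to 272 CPM and 12.2 to 22.0 CPM. The part of neutrophil RNA was not tested.

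Il1rl1 fell by more in the libraries labelled as lacking it (difference -2.67 ± 0.48, adjusted p = 0.0197), a call lost without RPM 3 labelled Il1rl1-/- (adjusted p = 0.0638) or WT RPM 4 (0.0674). Adam23, a membrane protein of the disintegrin family, and Pou6f1, a POU domain factor, rose by less in Il1rl1-/-, with log2 fold changes of 1.17 ± 0.21 and 1.71 ± 0.16 against 3.75 and 3.57 (adjusted p = 0.0065 and 0.00484). In WT the pre-RPM levels of these genes were 3.38 ± 2.28 and 1.89 ± 0.667 CPM, against 17.8 ± 5.88 and 6.91 ± 1.31 CPM in Il1rl1-/-. Snx9, a sorting nexin of endocytosis, and Arhgap10, a GTPase-activating protein, rose in Il1rl1-/- (1.21 ± 0.097 and 1.79 ± 0.18) and had log2 fold changes of -0.17 and 0.22 in WT (adjusted p = 0.00484 and 0.0246). Rises greater in Il1rl1-/- than in WT were found for Abca1 (difference 0.98 ± 0.16), the adaptor Nck2 (1.51 ± 0.24), the B cell scaffold Bank1 (1.05 ± 0.17), the GABA receptor chain Gabbr1 (1.39 ± 0.22) and the adenylate cyclase Adcy3 (3.02 ± 0.59, on the log2 scale). Their adjusted p were 0.00972, 0.00702, 0.00881, 0.0065 and 0.0441. When each of the 16 libraries was left out in turn, Arhgap10 lost its call in 9 cases (highest adjusted p = 0.103) and Adcy3 in 12 (0.147), while the other genes apart from Il1rl1 kept theirs. Among these 5, the pre-RPM mean was lower in Il1rl1-/- than in WT, as with Abca1 at 11.7 ± 1.51 against 16.98 ± 1.91 CPM. Their RPM mean was higher, for Abca1 at 174 ± 10.7 against 128 ± 12.4 CPM. The genotypes were scaled separately, and these differences in level were not tested.

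**Figure D5:**
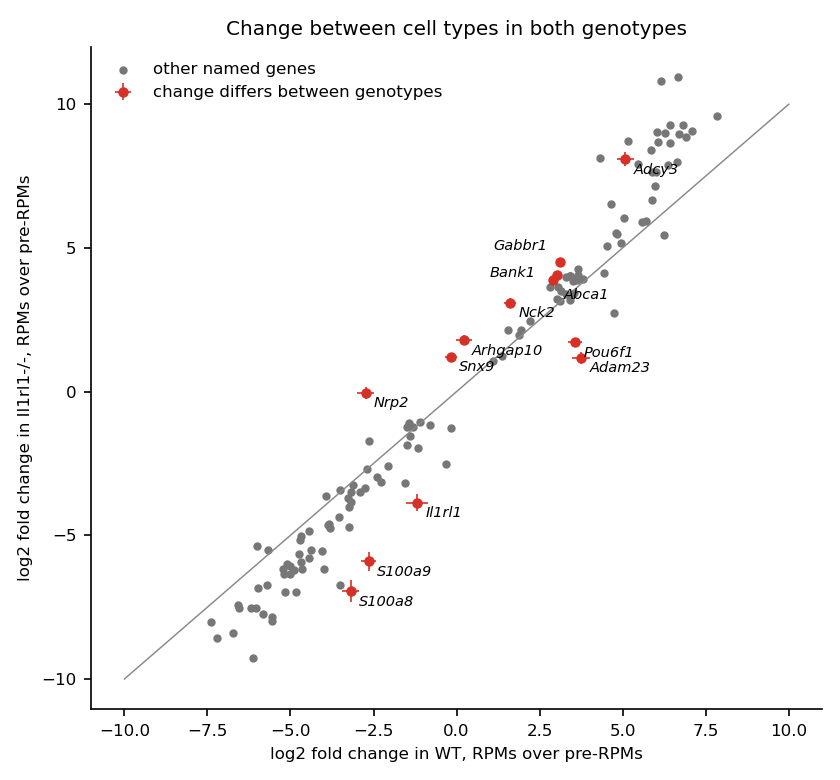
The log2 fold change of the named genes, RPMs over pre-RPMs, in WT (horizontal) and in libraries labelled Il1rl1-/- (vertical), with the line of equality. Red points with bars of 1 SE are the 13 genes whose change differed between genotypes, and grey points are other named genes. Since most grey genes were chosen by the size of their change in Il1rl1-/-, their distance from the line is no result.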

How the data were processed

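Total RNA of sorted splenocytes was sequenced after stranded total RNA library preparation with the pico kit. Per the file headers and methods, adapters were removed with cutadapt and alignment used STAR (2.5.1) with the Ensembl GRCm38 annotation. The authors deposited whole-number counts of read pairs per gene name from exons, with strand taken into account, made with featureCounts. The processing notes name a human build, GRCh38, which goes against the mouse gene names and coordinates in the files. Replicates were not pooled. No column but the counts was used.

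Genes were filtered with filterByExpr, scaled by TMM and tested with edgeR 4.0.16 (quasi-likelihood F test, R 4.3.3) over the 8 libraries, with Benjamini-Hochberg adjustment over all genes tested. The thresholds were an adjusted p of 0.01 and an absolute log2 fold change of 1. The difference between genotypes was the interaction term over 16 libraries at an adjusted p of 0.05. The fit was tested on simulated counts. Alternatives were DESeq2 1.42.0, RLE size factors, filters of 1 count or of 10 counts in every library, all 24 libraries in a single fit, the replicate block, removal of Gm42418, glmTreat and each library left out.

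Libraries with the same number carry the same mouse number in the labels, and their deviations from the group means correlated at r = 0.103 to 0.152 for the 4 numbers, against -0.188 to 0.0485 for different numbers. The numbers were thus taken to pair the samples. The main fits hold no mouse term, and pairing enters only in the replicate block and the permutation within mice. No 2 libraries were identical or alike within sampling noise (lowest chi-square per degree of freedom 3.85 over 12 pairs). Each library came from its own mouse within a cell type, so the p-values of the main fits measure the spread between mice without the pairing.

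The members and gene lists were chosen with earlier results of these data known, so no list is independent evidence. Named genes were, among called genes without overlap between groups and with a mean log2 CPM of at least 4, the 10 that rose most and the 10 that fell most, a fixed set of RPM and monocyte genes, the 4 called members of each list with the largest change, and genes whose change differed between genotypes. Others are said to be chosen after their values were seen. Of the genes this rule names, 3 are not reported here. Summed levels of marker lists have no test.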

Additional observations from a re-analysis of the deposited data

Results flagged for a closer look

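In groups of 4 libraries, a single library can stand apart from the other 3. Of 248 groups checked, 7 held a library whose gap to its nearest neighbour, as a share of the group's range, was above the 95% critical value of Dixon's test, while chance flags about 1 in 20 groups. In RPM libraries these were Ahnak (0.909, with RPM 1 high), Maf (0.833, RPM 1 high), the summed T cell markers (0.863, RPM 1 high) and the summed stromal and endothelial markers (0.908). In pre-RPM libraries they were Spic (0.856, pre-RPM 1 low), Gclm (0.848, pre-RPM 1 low) and Prdx2 (0.854, pre-RPM 2 high). Every one of these genes kept its call when that library was left out.

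The change from pre-RPMs to RPMs differed between genotypes for 13 genes by the test of the difference itself. On the log2 scale, the change in libraries labelled Il1rl1-/- less that in WT was 2.72 for Nrp2, 1.51 for Nck2, 1.05 for Bank1, 0.976 for Abca1, 1.58 for Arhgap10, 3.02 for Adcy3, 1.39 for Snx9 and 1.39 for Gabbr1. It was -2.67 for Il1rl1, -2.56 for Adam23, -3.73 for S100a8, -3.23 for S100a9 and -1.84 for Pou6f1. An unadjusted p under 0.05 was reached by 914 of the 12150 genes, and by 27 of the 43 red pulp macrophage and monocyte markers.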

How the results depend on the processing

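The count of genes called, 2973, stayed within 1.5 times under RLE size factors, 1 count as the filter, all 24 libraries, Gm42418 removed and DESeq2, and went from 2964 to 3092 when single libraries were left out (1631 to 1683 higher, 1310 to 1409 lower). With the replicate block 3001 genes were called. It moved to 1542 (817 higher, 725 lower) when every library had to hold 10 counts, a filter that removes genes absent from a group, and to 1866 (1024 and 842) with glmTreat, which tests against the threshold itself. The 13 genes that differed between genotypes became 36 with DESeq2, 36 with the replicate block, 5 with 10 counts in every library and 224 with 1 count as the filter, and 10 to 18 without single libraries. In edgeR the replicate block ended no call of a named gene. Il1rl1 differed by -3.69 to -3.22 without single libraries, each at p = 0.0571, the smallest that 4 against 3 allows in the exact test. With the replicate block, as an exact permutation within mice, its difference of -3.50 had p = 0.125.

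Of 2248 values of named genes under alternatives, 2215 kept direction and side of the threshold, 33 lost the call and 0 reversed. The 33 belong to 12 genes, among them Gzma, Jchain and Clec9a. Of 1360 list counts, 98 moved by more than 1.5 times, 36 of them with 10 counts in every library, and the cause was not tested. At these depths, levels under about 1 CPM rest on a few counts.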

Other observations

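Interferon-stimulated genes varied with the mouse number in both cell types. Their sum was 2374, 2240.0, 3182 and 2896 CPM in pre-RPMs 1 to 4 and 1396, 1298, 1967 and 2050.0 CPM in RPMs 1 to 4. Plasma cell markers summed to 282, 453, 166 and 111 CPM in pre-RPMs and 138, 106, 75 and 77.7 CPM in RPMs, so that mice 1 and 2 stood above mice 3 and 4 in each cell type. The second principal component, with 3.14% of the variance, set mice 1 and 2 apart from mice 3 and 4 in both cell types, with scores of 8.01, 9.67, -10.5 and -8.85 in pre-RPMs and 18.4, 19.7, -14.5 and -21.9 in RPMs. Mitochondrially encoded protein transcripts took 0.326% to 0.445% of the counts in pre-RPMs and 0.497% to 0.682% in RPMs. Of the 2973 genes called, 443 belonged to any of the 40 lists.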
